A study of Mus musculus with 48 samples.

Results

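Collagen chain genes encode the alpha chains that fold in threes into the triple helices of the extracellular matrix, and they were followed here through the gonadal somatic cells (GSCs) of C57BL/6 mice and through the gonadal somatic cell-like cells (GSCLCs) induced from female mouse embryonic stem cells (ESCs). The members were chosen by symbol alone, as every gene named Col, a number, a and a number. This rule found 44 of 22173 genes in the table of read counts, 37 of 13682 genes in the table of FPKM (fragments per kilobase of transcript, scaled to library size) and, by Ensembl identifier, 44 of 32285 genes in a 10x table of single cells. They were grouped by function into 11 fibrillar chains, 8 chains of basement membranes (collagens IV, XV and XVIII) and 25 other chains. The FPKM table listed 11, 7 and 19 of these, and did not list Col19a1, Col26a1, Col28a1, Col4a3, Col6a5, Col8a2 or Col9a1.

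Read counts covered GSCs separated from female gonads at E12.5, E13.5 and E16.5 and from the ovary 6 weeks after birth (P6w), with 2 libraries a stage. FPKM covered ESCs in induction culture for 24 h and 48 h without an added compound (Con), with vitamin C (Vc), with the retinoic acid receptor agonist AM580, or with both (V580), in 2 libraries each, V580 GSCLCs at day 4, 6, 8 and 10 in 3 libraries each, and 3 libraries separated from E12.5 female gonads (E12.5_GC). The 10x sample held V580 GSCLCs at day 6. The ESCs were kept on feeder cells, which were taken off by letting them adhere, and the gonadal somatic cells were those left in the SSEA1-negative fraction of a magnetic separation, so that neither population is 1 cell type. The labels do not say whether libraries of a group came from separate animals or cultures, so the p values measure the spread between these libraries, which may be technical.

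Collagen I, III and V are fibrillar collagens made by mesenchymal cells, and collagen I is a trimer of 2 chains from Col1a1 and 1 from Col1a2. Collagens IV, XV and XVIII lie in or at basement membranes, which in the gonad underlie the surface epithelium, the vessels and the cords or follicles. Collagen VI forms beaded microfibrils beside cells. Collagens II, IX, X and XI are best known from cartilage. The helix of each chain is a run of triplets that begin with glycine, the only residue small enough for its centre.

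The coding sequences of the chains that carried the findings show this shared feature, with the glycine codon that opens each triplet in capitals. Each is the first 10 triplets of the longest unbroken glycine run in the annotated transcript (GRCm38.p6, GENCODE), and they are printed to show the triplet that the classes share.
Col1a1, fibrillar: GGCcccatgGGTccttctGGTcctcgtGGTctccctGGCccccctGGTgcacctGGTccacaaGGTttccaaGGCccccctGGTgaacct
Col3a1, fibrillar: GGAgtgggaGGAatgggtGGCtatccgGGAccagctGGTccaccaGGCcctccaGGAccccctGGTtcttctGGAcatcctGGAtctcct
Col2a1, fibrillar: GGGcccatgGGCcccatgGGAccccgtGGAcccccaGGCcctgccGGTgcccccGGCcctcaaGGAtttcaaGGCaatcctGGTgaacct
Col4a1, basement membrane: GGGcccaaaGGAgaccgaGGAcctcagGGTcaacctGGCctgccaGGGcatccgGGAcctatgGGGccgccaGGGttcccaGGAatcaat
Col18a1, basement membrane: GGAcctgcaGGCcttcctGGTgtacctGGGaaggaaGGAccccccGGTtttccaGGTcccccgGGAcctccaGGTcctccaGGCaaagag
Col6a1, other: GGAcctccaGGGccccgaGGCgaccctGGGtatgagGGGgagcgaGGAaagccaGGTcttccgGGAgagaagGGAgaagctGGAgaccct
In these 6 genes the run was 338 triplets in Col1a1, 344 in Col3a1 and 339 in Col2a1, against 87 in Col6a1, 40 in Col4a1 and 30 in Col18a1. The helix of Col4a1 was broken into 18 runs of at least 10 triplets, and that of Col18a1 into 7. In GRCm38, Col1a1 lies on chromosome 11 (94936224 to 94953042, plus strand), Col3a1 on chromosome 1 (45311538 to 45349706, plus), Col2a1 on chromosome 15 (97975602 to 98004695, minus), Col4a1 on chromosome 8 (11198423 to 11312826, minus), Col18a1 on chromosome 10 (77052178 to 77166548, minus) and Col6a1 on the same chromosome (76708792 to 76726168, minus).

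The stage libraries held 12694769 to 22259044 counts, and depth is not given for the FPKM libraries. Both E12.5 libraries, labelled as female gonads, carried Y-linked transcripts at a summed 8.40 to 9.49 CPM (counts scaled to library size), against 0 to 0.254 in the later stages. The 6 Sertoli cell genes summed to 82.0 to 83.4, 40.7 to 41.8, 168 to 176 and 320 to 398 CPM in the order of age. Of these genes, Amh, Dhh and Cyp26b1 had 10.7 and 7.85, 6.02 and 5.43, and 12.6 and 14.9 CPM at E12.5, against at most 2.08 at E13.5, while Mro was higher at E13.5. At E16.5 most of the Sertoli sum was Sox9 (124 and 129 CPM). At P6w most was Mro (217 and 228 CPM) and Amh (157 and 68.0 CPM), with Sox9 at 1.47 and 1.33 CPM. The sum of 5 granulosa cell genes was 952 to 1682 CPM in every stage library, with all 5 detected. Erythroid genes summed to 11230 to 19680 CPM at E12.5 and E13.5 and to 18.5 to 1064 later, and hepatocyte genes to 163 to 167 CPM at E13.5, against 1.84 to 4.28 at E12.5 and E16.5, while at P6w nearly all of their sum was Apoa1 (122 and 133 CPM), with Alb and Ttr at 0. The E12.5, E13.5 and first E16.5 libraries carry one lane code and the second E16.5 and the P6w libraries another. The second E16.5 library thus shares its code with P6w, and the first E16.5 library with E12.5. The part of the lane in the comparisons with E16.5 was not tested. Between P6w and E12.5, lane and stage cannot be told apart.

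The first question was how the chains changed through GSC development. The fibrillar chains were a larger share of the collagens at E16.5 than at E12.5. Values of the stages are given in the order of age, from E12.5 to P6w. Per length, fibrillar chains summed to 87.3 to 95.6, 71.7 to 74.2, 280 to 312 and 41.9 to 42.5 CPM per kb, and their share of all collagen went from 31.9% to 33.2% at E12.5 to 52.5% to 53.9% at E16.5 and 24.6% to 27.2% at P6w. Without the division by length these shares were 40.6% to 42.3% at E12.5 and 60.6% to 62.3% at E16.5. Basement membrane chains summed to 108 to 109, 75.2 to 78.7, 78.9 to 93.6 and 30.8 to 31.1 CPM per kb. The ranges of the fibrillar sums did not overlap between any stages, nor did those of the basement membrane sums, of which E13.5 and E16.5 lay side by side. Which class was the larger at E12.5 turned on the scale, since basement membrane chains took 37.6% to 39.9% of the collagen sum per kb and 34.8% to 36.6% in CPM.

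**Figure D1:**
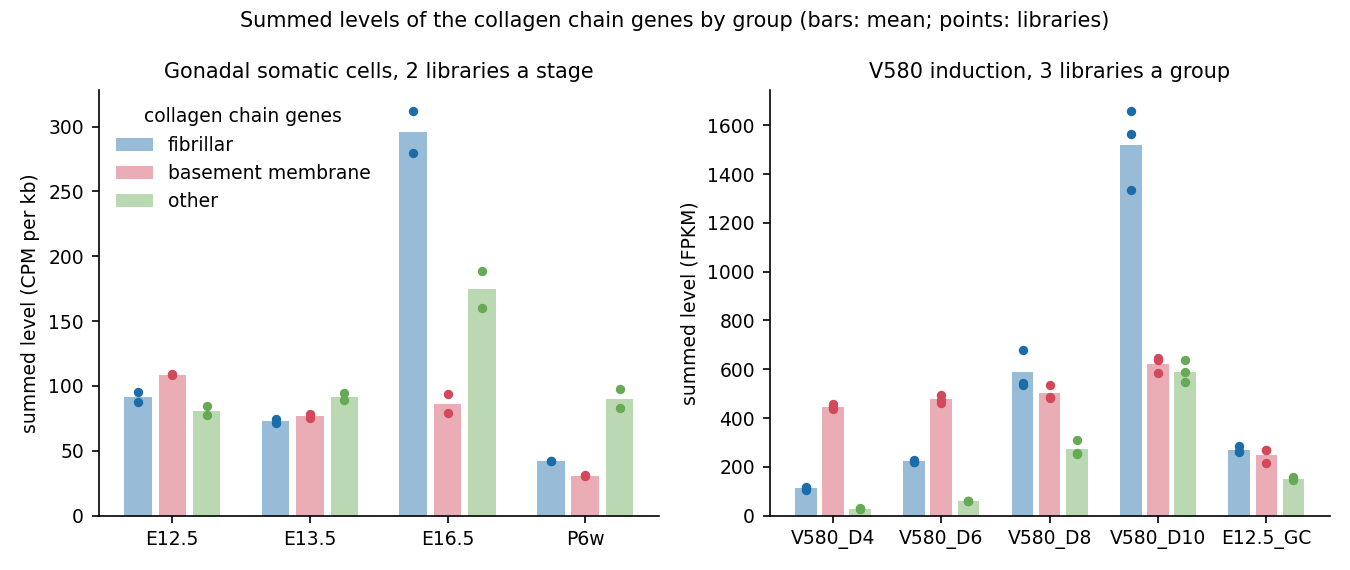
Summed level of the fibrillar, basement membrane and other collagen chains in each library, in CPM per kb for the stages and in FPKM for the V580 days and E12.5_GC (vertical axis), by group (horizontal axis). The fibrillar sum is highest at E16.5 among the stages (280 to 312 CPM per kb) and at day 10 among the V580 days (1334 to 1660 FPKM).

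Of the 44 genes, 43 passed the filter on low counts, and Col17a1, with 2 to 10 counts a library, did not. At a Benjamini-Hochberg adjusted p below 0.05 in edgeR's quasi-likelihood test, 20 of 43 collagens were higher and 8 lower at E16.5 than at E12.5. Of all genes tested, 20.5% were called higher and 17.1% lower. The median change of the collagens was 0.68 on the log2 scale, against -0.01 over all genes. The called genes were 4 higher and 1 lower of the 11 fibrillar chains, 3 and 3 of the 8 basement membrane chains, and 13 and 4 of the 24 other chains. In bulk samples, fewer cells of a type and less RNA per cell cannot be told apart.

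Among the fibrillar chains, Col1a1 had 19.4 and 22.8 CPM per kb in the E12.5 libraries, then 20.7 and 19.9, then 138 and 123 in the E16.5 libraries, and 9.83 and 11.4 in the adult. Both E16.5 libraries stood above all others and both P6w libraries below. Col1a1 rose by 2.63 ± 0.13 (log2 fold change ± SE, adjusted p = 3.51e-09) from E12.5 to E16.5 and fell by 3.62 from E16.5 to P6w (adjusted p = 1.51e-11). Its partner chain Col1a2 had 23.8 and 25.4, 18.4 and 18.0, 63.9 and 57.1, and 8.19 and 9.23 CPM per kb in the same order, a smaller rise of 1.30 ± 0.12. The ratio of Col1a1 to Col1a2 was 0.857, 1.11, 2.16 and 1.22 in order of age (means of 2 libraries). Col3a1, the chain of the homotrimer that runs with collagen I, had 21.6 and 23.0, 19.1 and 19.1, 77.0 and 74.9, and 7.80 and 7.99 CPM per kb, a rise of 1.77 ± 0.11 from E12.5 to E16.5 and a fall of 3.27 on the log2 scale from there to P6w. Col5a2, a chain of the collagen V that nucleates such fibrils, rose by 0.81 at E16.5, and Col5a1 did not pass the test (0.24 ± 0.15, adjusted p = 0.238).

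The chains of collagen VI were higher at E16.5 in all 6 genes. Col6a1 had 20.7 and 23.1, 36.0 and 32.4, 82.2 and 67.2, and 28.6 and 24.9 CPM per kb in order of age. Col6a2 had 10.8 and 10.6, 19.1 and 15.8, 39.8 and 30.2, and 6.71 and 7.20. These were also the only 2 collagens higher at E13.5 than at E12.5 (log2 fold changes 0.64 and 0.71). Col6a1 ran at about the same ratio to Col6a2 in the embryo, and at a mean ratio of 3.86 at P6w. The largest rises at E16.5 were those of low genes. Col8a1, a short network-forming chain, had 11 and 8 counts at E12.5 and 189 and 133 at E16.5 (log2 fold change 4.15 ± 0.41), and Col6a5 had 14 and 18 against 265 and 115 (3.59 ± 0.46). Col4a4, with 58 and 33 against 555 and 206 counts (3.08 ± 0.32), and Col6a4, with 11 and 21 against 120 and 102 counts (2.88 ± 0.33), followed.

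**Figure D2:**
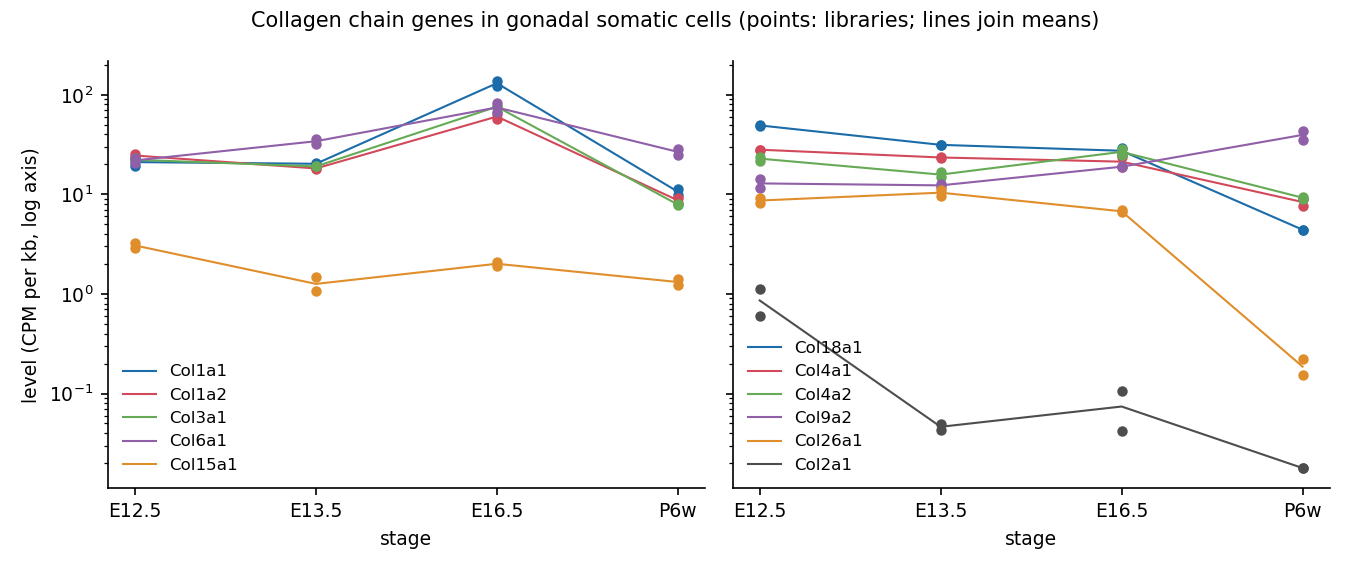
Level of 11 collagen chain genes in each stage library, in CPM per kb on a log axis (vertical), by stage (horizontal), with lines through the means of 2 libraries. Col1a1, Col1a2 and Col3a1 peak at E16.5 (Col1a1 123 to 138), Col9a2 is highest at P6w (35.4 to 43.8), and Col2a1 is highest at E12.5.

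The basement membrane chains differed from the fibrillar ones at E16.5, where the fibrillar sum stood above its E12.5 level and theirs below. Both sums fell from E12.5 to E13.5 and from E16.5 to P6w. Col18a1, which carries the endostatin domain, was the highest collagen in the E12.5 stage libraries, with 48.5 and 50.1 CPM per kb and 17.5% of the collagen sum. It then had 31.6 and 31.3, 29.1 and 25.7, and 4.43 and 4.40 from E13.5 to P6w. It fell by 0.85 on the log2 scale at E16.5 and by 3.48 at P6w, both against E12.5. The E12.5_GC libraries, in FPKM, gave another order. There Col18a1 ranked 5 with 8.19% of the collagen sum, below Col4a1, Col1a1, Col3a1 and Col4a2. Its ratio to Col4a1 was 0.521 to 0.677 in E12.5_GC and 1.72 to 1.79 in the E12.5 stage libraries. The mean ratio of Col1a1 to Col1a2 was 1.79 and 0.857 in the same order. The part of the unit in these differences was not tested. Col4a1 and Col4a2, the chains of the collagen IV found in nearly all basement membranes, had 28.2 and 28.1, 23.8 and 23.2, 23.7 and 19.0, and 7.68 and 9.07 (Col4a1), and 23.9 and 21.8, 16.7 and 14.9, 28.6 and 24.9, and 9.50 and 9.01 (Col4a2). Col4a1 fell by 0.40 on the log2 scale from E12.5 to E16.5, and Col4a2 was 0.23 ± 0.12 higher without passing the test. Their ratio was 1.23, 1.49, 0.794 and 0.908 in stage order. The chains of the collagen IV of mature basement membranes, Col4a3 and Col4a4, rose at E16.5 (2.03 and 3.08) and stood 2.05 and 2.80 above E12.5 at P6w.

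At P6w the collagens were low except for a few. Against E16.5, 7 of 43 were higher and 27 lower, where 26.3% and 29.8% of all genes were, and the median change was -1.53 against -0.04 over all genes. Against E12.5, 12 were higher and 25 lower, where 25.4% and 27.5% of all genes were. Col9a2, a chain of the collagen IX that decorates fibrils, led all collagens at P6w with 43.8 and 35.4 CPM per kb and 24.2% of their sum, against 11.6 and 14.2 at E12.5, a rise of 1.62 ± 0.15. Its partner chains did not follow. Col9a3 had 5.85 and 6.76, 1.16 and 1.20, 0.910 and 1.35, and 0.276 and 0.216 CPM per kb, and fell by 4.67 on the log2 scale from E12.5 to P6w. Col9a1 had 39 and 57, 1 and 7, 0 and 0, and 8 and 4 counts in order of age, so that it was at least 13.9-fold lower at E16.5 than at E12.5 and at least 2.97-fold lower than at P6w, with 3 counts a library as the floor.

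Other rises at P6w were those of Col6a4, from 11 and 21 counts at E12.5 to 839 and 725 (log2 fold change 6.38 ± 0.31), and of the fibrillar Col11a1, from 0.95 and 0.99 to 4.67 and 4.81 CPM per kb (2.29). Against E16.5, Col27a1, Col28a1 and Col20a1 rose by 1.05, 2.08 and 1.89 on the log2 scale. Col26a1, a chain first described in testis and ovary, had 8.24 and 9.11, 9.70 and 11.1, and 6.63 and 6.89 CPM per kb in the embryo, but 0.220 and 0.153 at P6w, a fall of 5.17 on the log2 scale against E16.5. Col13a1, Col8a2 and Col12a1 fell by 4.15, 4.09 and 3.66. Col19a1, with 35 and 35, 7 and 8, 6 and 3, and 0 and 0 counts, was at least 7.12-fold lower at P6w than at E12.5. Among the cartilage markers at P6w, which summed to 883 to 951 CPM, nearly all was Cnmd at 881 and 949 CPM, while Hapln1 was at 0 and Acan at 0.245 and 0.416 CPM. Their part in the level of Col9a2 was not tested.

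Between E12.5 and E13.5, 2 of 43 collagens were higher and 15 lower, where 23.8% and 22.1% of all genes were. Col2a1, the fibrillar chain of cartilage, had 224 and 112, 9 and 7, 9 and 16, and 2 and 2 counts in order of age. It fell by 4.19 on the log2 scale at E13.5 (adjusted p = 1.70e-05). Col9a1, Col9a3 and Col19a1 fell by 3.36, 2.42 and 2.03. The Y-linked transcripts given above were also near absent at E13.5, and of the 6 Sertoli cell genes 5 were lower and 1 (Mro, 0.40) higher, and the part of such cells in these falls was not tested. In this comparison the log2 fold changes over 16169 genes ran down with exon length (Spearman's rho -0.494, a description), and the collagens are long, with a median of 7621 bases against 4135. With a term for length, 11 collagens were called, 5 higher and 6 lower, and Col5a1, Col1a2 and Col12a1 changed direction, at 0.03, 0.23 and 0.23.

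Because of the Y-linked transcripts at E12.5, the later stages were also set against E13.5 with both E12.5 libraries left out. Then 27 of 40 collagens were higher and 2 lower at E16.5 (28.7% and 23.4% of all genes), 22 of them among those called against E12.5, and Col1a1 was 2.71 and Col3a1 2.02 higher on the log2 scale. Col15a1, a collagen of the basement membrane zone, was lower at E16.5 than at E12.5 (-0.61) and higher than at E13.5 (0.69), and the calls of Col18a1, Col4a1 and Col9a3 at E16.5 were lost. At P6w, 14 were higher and 21 lower than at E13.5 (28.8% and 29.2% of all genes). The fold changes against E13.5 also ran with exon length over all genes (Spearman's rho 0.343 at E16.5 and 0.259 at P6w). With a length term in this fit, 20 collagens were higher and 4 lower at E16.5, and 12 higher and 22 lower at P6w.

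Interstitial cell genes, a list of mesenchymal markers, summed to 285 to 290, 350 to 383, 721 to 838 and 204 to 220 CPM in stage order, and smooth muscle genes to 140 to 141, 156 to 162, 252 to 329 and 356 to 399 CPM. The interstitial sum and the fibrillar sum were both highest at E16.5 and lowest at P6w, and the part of the former in the latter was not tested.

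Genes that modify, cleave, cross-link or bind collagen were counted from lists. Their counts are to be read against the 20.5% of all genes higher and 17.1% lower at E16.5. At E16.5 against E12.5, both changes among the 4 lysyl oxidases, which cross-link collagen, were rises, Loxl1 by 2.67 ± 0.16 and Lox by 1.94. The 5 fibril-binding genes listed were the small leucine-rich proteoglycans Dcn, Bgn, Lum and Fmod, and Sparc. Of these, 3 rose, Lum by 3.87, Dcn by 2.30 and Bgn by 1.36. Of the 16 hydroxylases, glycosyltransferases and chaperones of the chains, 2 rose (P3h2 0.80, Plod2 0.60) and 1 fell (Plod1 -0.47), both below those shares. Of the 6 procollagen proteases and protease enhancers, 1 rose (Adamts2, which removes the amino-terminal propeptide, 1.84) and 2 fell. Those that fell were Bmp1 (-0.58) and the enhancer Pcolce2, which was at 0 at E16.5 and at least 4.43-fold lower than at E12.5. Of the 10 other basement membrane components, 1 rose (Lamb2 0.54) and 3 fell, among them Pxdn (-0.68) and Nid2 (-0.60). Of the 7 receptors, 3 rose, with Ddr2 at 0.94, and 1 fell (Itga2 -1.06). Of the 4 collagenases, 2 rose (Mmp8 2.89, Mmp2 0.71).

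From E16.5 to P6w, where 26.3% of all genes were higher and 29.8% lower, the lists had other counts. Of the 16 hydroxylases and chaperones, 12 were higher and 2 lower, Colgalt2 by 3.85, Plod2 by 3.01 and Plod1 by 1.96, while 27 of the 43 collagens they act on were lower. All 5 fibril-binding genes were lower (Lum -2.47, Fmod -2.43, Dcn -2.11), as were 3 of 4 lysyl oxidases (Loxl1 -2.92, Loxl2 -1.35, Lox -0.90) and 3 of 4 collagenases (Mmp2 -3.08). Of the receptors, 3 rose, with the collagen-binding integrin chain Itga2 at 3.78. At E13.5 against E12.5, 8 of 10 basement membrane components were lower, where 22.1% of all genes were and where fold changes ran down with exon length, whose part in these genes was not tested. Among them were Nid2 (-1.36), Lama4 (-1.09) and Pxdn (-0.92). Of the 16 hydroxylases and chaperones, 3 were higher, near the 23.8% of all genes, and 1 lower (Ppib 1.06, Plod2 -1.15).

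The second question was how near the collagens of V580 GSCLCs came to those of E12.5 gonadal cells over the days of induction. The fibrillar chains went from below the gonadal level at day 4 to above it at day 8, and came to outweigh the basement membrane chains. Fibrillar chains summed to 104 to 117 FPKM at day 4, 220 to 229 at day 6, 537 to 679 at day 8 and 1334 to 1660 at day 10, against 262 to 285 in E12.5_GC. Their share of the collagen sum was 18.2% to 19.8%, 29.2% to 29.8%, 42.0% to 44.5% and 54.1% to 56.4% in day order, against 38.2% to 42.1%. Basement membrane chains were above E12.5_GC (215 to 267 FPKM) on every day, at 439 to 459, 462 to 494, 481 to 536 and 583 to 647.

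Of the 37 genes listed, 30 reached 1 FPKM in at least 3 of 15 libraries. Col10a1, Col11a2, Col17a1, Col20a1, Col25a1, Col5a3 and Col6a4 did not, with at most 0.886 FPKM, and Col24a1 passed only through the day 8 libraries. Fold changes here are on the log2(FPKM+1) scale, which understates the changes of low genes, and calls need an adjusted p below 0.05 in limma and at least a 2-fold change. Against E12.5_GC, 3 collagens were higher and 16 lower at day 4 (9.13% and 11.3% of all genes), 3 and 10 at day 6 (7.06% and 8.11%), 8 and 2 at day 8 (6.90% and 6.07%) and 14 and 1 at day 10 (9.16% and 7.23%). The median change went from -1.09 and -0.38 to 0.47 and 0.85. The 4 comparisons share the E12.5_GC libraries. Between day 4 and day 10, 19 collagens rose and 2 fell (8.76% and 3.51% of all genes). Of the fibrillar chains, 1 was higher and 6 lower of 9 at day 4, and 4 higher and 0 lower at day 10. Of the basement membrane chains, 1 was higher and 1 lower of 7 at day 4, and 5 higher at day 10.

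Col1a1 had 42.6, 41.6 and 33.2 FPKM at day 4, 90.1, 82.5 and 83.4 at day 6, 339, 253 and 252 at day 8 and 809, 653 and 884 at day 10, against 88.8, 91.3 and 72.0 in E12.5_GC. The day 6 libraries lay within the gonadal range (0.03 ± 0.14, adjusted p = 0.867), and all day 8 and day 10 libraries lay above it. At day 10 Col1a1 was 3.20 ± 0.14 higher on the log2 scale (adjusted p = 4.55e-11). Col3a1 started lower, with 8.06, 8.25 and 7.92 FPKM at day 4, and reached 411, 376 and 415 at day 10, against 76.8, 67.9 and 76.2 in E12.5_GC. The ratio of Col1a1 to Col3a1 was 4.84 at day 4 and 1.95 at day 10, against 1.15 in E12.5_GC, and that of Col1a1 to Col1a2 went from 1.83 to 3.70 against 1.79. The largest rise from day 4 to day 10 was that of Col6a1, from 3.11, 2.76 and 2.85 to 335, 305 and 362 FPKM, against 51.5, 57.5 and 51.7 in E12.5_GC. It rose by 6.42 ± 0.09, and Col6a2, Col3a1 and Col15a1 followed at 5.64, 5.47 and 5.23. At day 4 the largest falls against E12.5_GC were in Col6a1 (-3.80), Col6a2 (-3.68), Col6a3 (-3.46) and Col15a1 (-3.21). At day 6 Col6a3 (-2.49), Col9a2 (-2.30), Col5a2 (-2.15) and Col15a1 (-1.77) were furthest below, and at day 8 Col1a1 (1.73), Col6a1 (1.45), Col11a1 (1.30) and Col4a2 (1.19) were furthest above. At day 10 Col8a1 (2.66), Col6a1 (2.62) and Col3a1 (2.43) followed Col1a1.

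**Figure D3:**
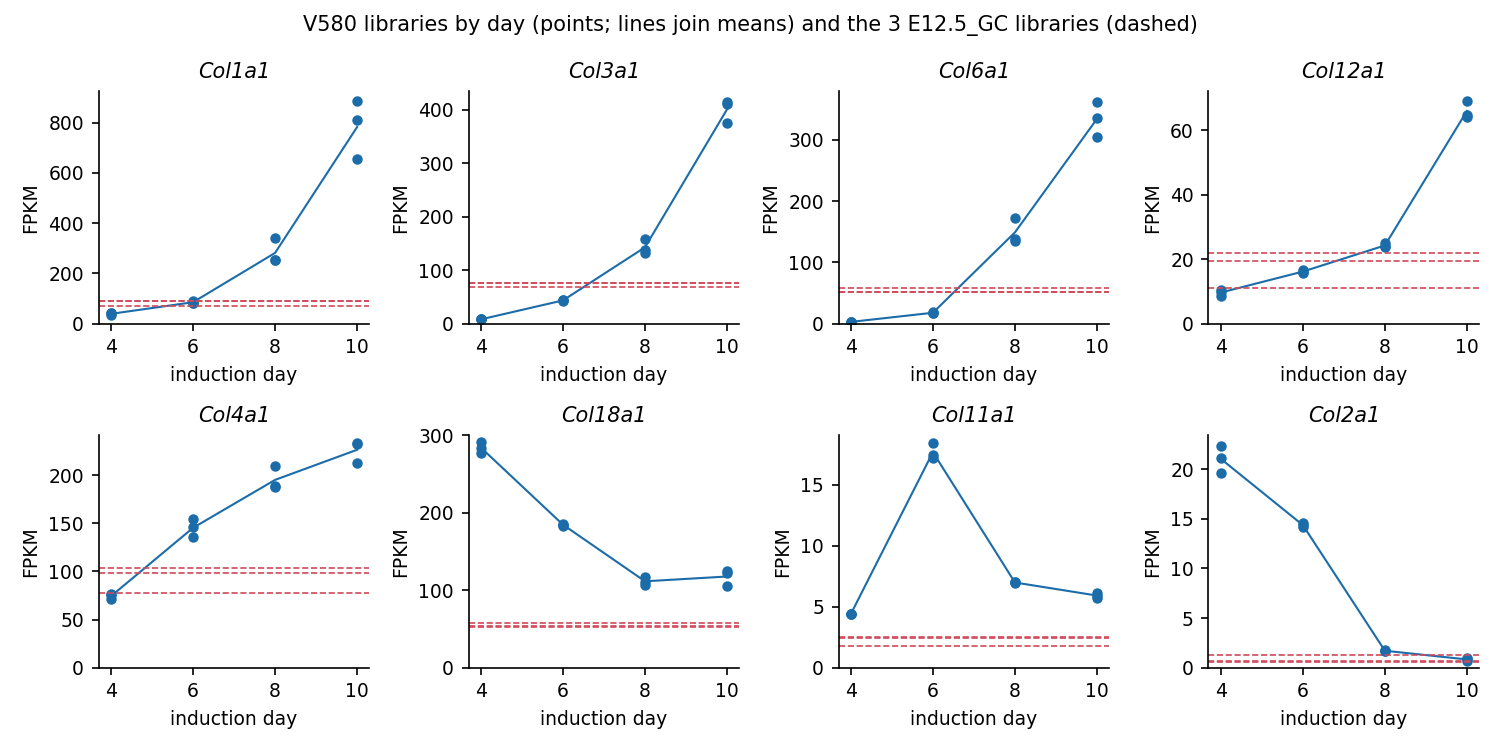
FPKM of 8 collagen chain genes in each V580 library (vertical axis, linear scale) by day of induction (horizontal axis), with dashed lines for the 3 E12.5_GC libraries. Col1a1, Col3a1 and Col6a1 cross the E12.5_GC lines between day 4 and day 8, Col18a1 and Col4a1 end above them, and Col2a1 comes down to them by day 10.

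The basement membrane chains followed other courses. Col18a1 fell from 292, 284 and 277 FPKM at day 4, where it made up 48.4% of the collagen sum, to 122, 106 and 126 at day 10, and stayed above the 58.4, 52.6 and 53.9 of E12.5_GC in every library. Col4a1 rose from 76.5, 71.0 and 75.4 to 232, 213 and 234 FPKM, and passed the 98.7, 77.7 and 103 of E12.5_GC from day 6 on. Col4a2 rose beside it, from 77.2, 70.3 and 71.0 to 216, 197 and 221. Of the cartilage chains, Col2a1 had 21.1, 22.4 and 19.7 FPKM at day 4, 14.6, 14.4 and 14.2 at day 6 and 1.02, 0.657 and 0.868 at day 10, against 1.32, 0.706 and 0.591 in E12.5_GC. It was 3.58 ± 0.11 above E12.5_GC at day 4, and its day 10 libraries lay within the gonadal range. Col11a1 peaked at day 6, at 17.2 to 18.4 FPKM, against 4.38 to 4.42 at day 4, 5.70 to 6.14 at day 10 and 1.82 to 2.50 in E12.5_GC. Col23a1, a transmembrane collagen, was the only collagen called lower at day 10, at 0.60 to 0.86 FPKM against 3.47 to 4.08 (-1.45 ± 0.07).

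The related lists were also counted at day 10 against E12.5_GC, where 9.16% of all genes were higher and 7.23% lower. Of 16 hydroxylases and chaperones, 4 were higher and 0 lower, Plod2 by 3.07, P4ha2 by 2.49 and P4ha1, a catalytic chain of prolyl 4-hydroxylase, by 2.11. Of 5 lysyl oxidases, 3 were higher (Lox 3.33, Loxl2 2.57, Loxl1 2.25), and of the 5 fibril-binding genes, 4 (Lum 3.83, Dcn 3.17, Bgn 1.90). Of 10 basement membrane components, 5 were higher (Lama5 3.21, Nid2 2.18, Lamc1 1.24), and of 5 receptors, 2 (Ddr2 2.04, Itga1 1.12), with none of either lower. Of 5 procollagen proteases and protease enhancers, 2 were higher and 1 lower, and of 3 collagenases, 1 was higher (Mmp2 2.82). From day 4 to day 10, where 8.76% of all genes rose, all 5 fibril-binding genes did, Lum by 5.32, Dcn by 4.35 and Fmod by 3.46.

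Markers of other cell types moved with the days. Smooth muscle genes summed to 202 to 228, 143 to 154, 285 to 362 and 626 to 780 FPKM in day order against 18.8 to 24.7 in E12.5_GC, and interstitial genes to 27.9 to 29.5, 46.3 to 47.5, 98.0 to 116 and 222 to 237 against 55.7 to 62.9. Granulosa cell genes summed to 96.3 to 109 FPKM at day 10 against 346 to 426 in E12.5_GC, and pluripotency genes to 194 to 220 at day 4. The interstitial and smooth muscle sums, like the fibrillar collagens, were highest at day 10, and their part in the rise was not tested.

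The third question was what each compound did in the first 48 h. Of the 37 genes listed, 20 reached 1 FPKM in at least 2 of 16 libraries, and Col13a1 did so only through the V580_48h libraries. Col10a1, Col11a1, Col11a2, Col14a1, Col15a1, Col17a1, Col20a1, Col22a1, Col23a1, Col24a1, Col25a1, Col27a1, Col4a4, Col4a6, Col6a4, Col6a6 and Col9a3 did not. At 24 h no collagen was called by limma with Vc (0.0846% of all genes called), AM580 (0.404%) or V580 (0.695%), and none with Vc at 48 h (0.0470%). At an unadjusted p below 0.05 these counts were 5, 9, 11 and 9 of 20, and without the fold threshold 2, 6, 8 and 7 passed. The shares of all genes just given belong to the 2-fold rule, so the counts under these looser rules are not read against them. At 48 h, AM580 raised 3 (2.33% of all genes higher, 0.902% lower) and none was called lower. With V580 the only call was Col13a1, higher (1.84% and 1.34% of all genes), and since this gene entered the test only through the V580_48h libraries the count is not read against that share.

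The 3 genes raised by AM580 were Col2a1 and both chains of collagen IV. Col2a1 had 2.18 and 2.34 FPKM in Con_48h, 1.45 and 1.81 with Vc, 13.2 and 12.8 with AM580 and 5.33 and 5.37 with V580. No libraries of different treatments overlapped. AM580 raised it by 2.10 ± 0.07 (adjusted p = 2.47e-12), V580 by 0.96 ± 0.07 (adjusted p = 1.54e-08), which is under 2-fold, and V580 stood 1.14 below AM580, the only collagen called between them (0.235% of all genes lower, 0.0282% higher). Col4a1 had 15.2 and 15.8 FPKM in Con_48h, 16 and 15.8 with Vc, 34.1 and 31.3 with AM580 and 24.9 and 22.8 with V580, and Col4a2 had 7.94 and 8.58, 9.55 and 9.68, 21.0 and 19.6, and 15.0 and 14.9. AM580 raised them by 1.03 ± 0.07 and 1.20 ± 0.06, and V580 by 0.59 and 0.78, under 2-fold. Col18a1, at 108 and 113 FPKM in Con_48h and 181 and 180 with AM580, was 0.71 higher, also under 2-fold. Col13a1, a transmembrane collagen, had 0.186 and 0.165 FPKM in Con_48h, 0.785 and 0.848 with AM580 and 1.422 and 1.498 with V580. It was 1.07 higher with V580, a value that rests on libraries without which it would not have passed the filter. Col1a1 had 15.1 and 15.7 FPKM in Con_48h, 19.5 and 18.7 with Vc, 16.9 and 15.8 with AM580 and 21.2 and 21.0 with V580, and no treatment moved it 2-fold.

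**Figure D4:**
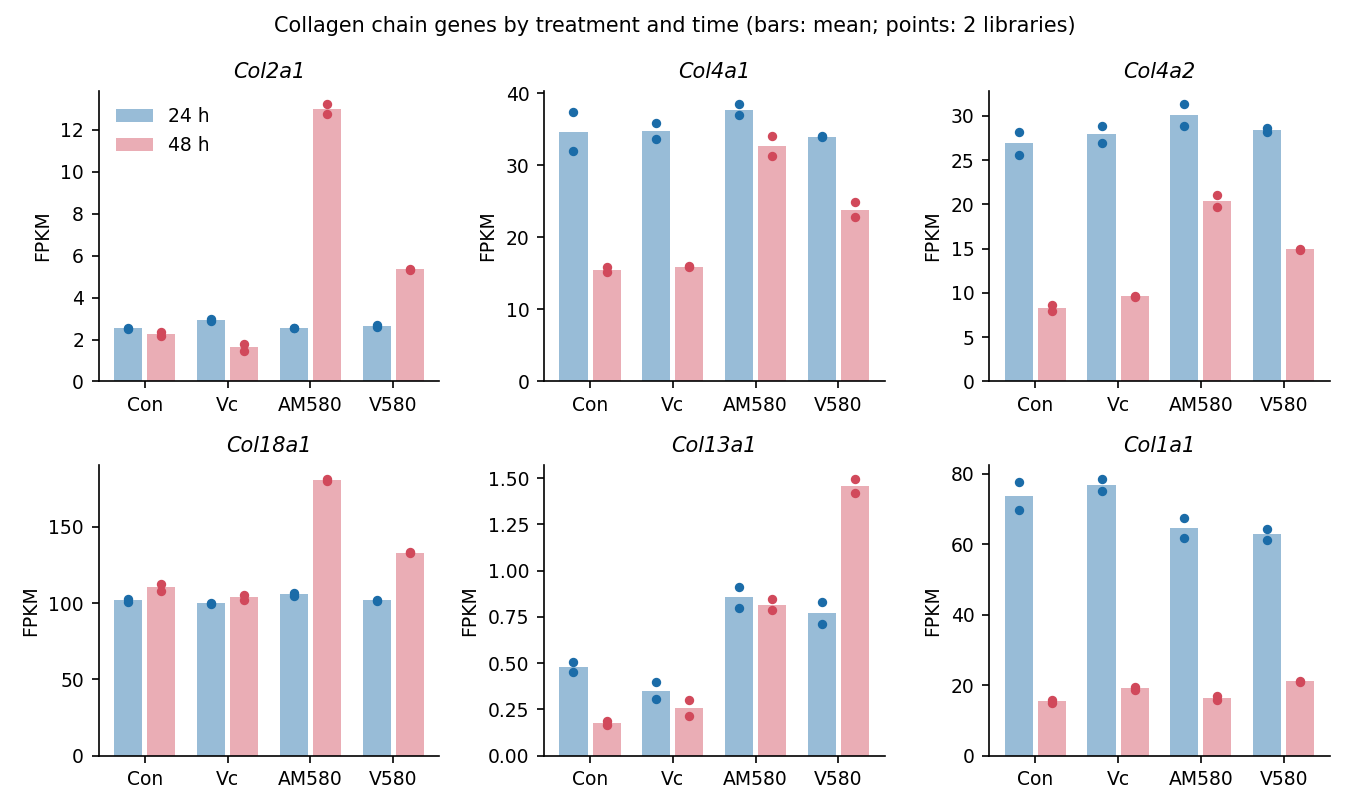
FPKM of 6 collagen chain genes in each library (vertical axis) at 24 h and 48 h under Con, Vc, AM580 and V580 (horizontal axis), 2 libraries a group. At 48 h Col2a1 stands at 12.8 to 13.2 with AM580 against 5.33 to 5.37 with V580 and 2.18 to 2.34 in Con, and Col1a1 is lower at 48 h than at 24 h in Con.

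On the log2 scale, Vc and AM580 were not additive on these genes. At 48 h the effect of Vc in the presence of AM580 minus its effect alone was -0.83 for Col2a1, -0.62 for Col4a2, -0.48 for Col4a1 and -0.35 for Col18a1, and these were the 4 collagens whose interaction passed at an adjusted p below 0.05, where 2.55% of all genes passed with a negative and 1.06% with a positive value. The V580 effect was more positive at 48 h than at 24 h for 11 collagens, 1 of them Col13a1, which passed the filter only through V580_48h, and more negative for 0, where 15.8% and 18.1% of all genes passed, with differences from 0.26 (Col18a1) to 0.91 (Col2a1). The V580 effect on Col6a1, whose difference was 0.22, did not pass.

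Culture time without a compound moved more collagens than any treatment at 48 h. From 24 h to 48 h in Con, 11 of 20 collagens fell and 0 rose (5.20% and 2.52% of all genes), with a median change of -1.11. Col1a1 had 77.7 and 69.8 FPKM at 24 h, and fell by 2.19 (± 0.06). Col1a2, Col4a2, Col5a2 and Col12a1 fell by 1.60, 1.59, 1.56 and 1.38. Col18a1 changed by 0.12, and its share of the collagen sum was 30.7% at 24 h and 59.6% at 48 h. Smooth muscle genes summed to 458 to 480 FPKM in Con_24h and 133 to 140 in Con_48h, interstitial genes to 41.0 to 42.3 and 19.2 to 19.9, and the lysyl oxidases fell in 4 of 5 genes (Lox -2.52). The part of fibroblast feeder cells left in culture in these falls was not tested.

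At 48 h, markers of extraembryonic endoderm, a lineage known for making basement membrane, moved with Col4a1 and Col4a2 across the treatments. They summed to 3.59 to 3.98 FPKM in Con_48h, 4.18 to 4.83 with Vc, 19.1 to 19.8 with AM580 and 9.65 to 11.4 with V580, an order that Col4a2 shared, and Col4a1 except that Con and Vc lay together. From 24 h to 48 h in Con the markers and the chains did not move together. In Con_24h the markers summed to 3.32 to 4.10 FPKM, with Col4a1 at 37.4 and 31.9 and Col4a2 at 28.2 and 25.6. With AM580 at 24 h the markers summed to 7.04 to 7.28 FPKM, and neither chain was called. At 48 h the laminin chain Lama1, itself on this marker list, had 1.12 and 1.16 FPKM in Con_48h, 5.43 and 5.77 with AM580 and 3.29 and 2.61 with V580. The part of these cells in the collagen IV levels was not tested in the bulk libraries. With AM580 at 48 h, where 2.33% of all genes rose and 0.902% fell, 4 of 16 hydroxylases and chaperones rose and 0 fell, among them Colgalt2 (1.29), the collagen chaperone Serpinh1 (1.26) and P4ha1 (1.06). The gelatinase Mmp9 rose by 2.82 with AM580 and by 2.19 with V580, and Loxl2 by 1.03 with AM580. With V580, Colgalt2 rose by 1.62, and Dcn and the collagen receptor Ddr1 fell by 1.09 and 1.25.

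Several collagen genes are neighbours, and neighbours did not always move together. Joint calls were not counted for other pairs of genes, and the comparisons share libraries, so the counts are descriptions. At P6w against E12.5, for one, 25.4% of all genes were called higher and 27.5% lower. Col4a1 and Col4a2 lie head to head and share 22 bases, and they were called together in 7 of the 9 comparisons between groups in which either was called, among them P6w against E12.5 (-1.75 and -1.30), V580 day 10 against day 4 (1.59 and 1.52) and AM580 at 48 h. At E13.5 only Col4a2 fell (-0.53), and at E16.5 only Col4a1. Col4a6 and Col4a5, head to head with 1308 bases between them, were called together in 0 of 3. Col4a6 was higher at E16.5 (0.62) and P6w (0.96) against E12.5, and Col4a5 lower at P6w than at E16.5 (-0.54). Col4a4 and Col4a3 were called together in 2 of 2, rising at E16.5 and at P6w against E12.5. Col4a4 and Col4a3 lie head to head on chromosome 1 with 71 bases between them. That interval, from which both are read in opposite directions, is printed because it is the whole of the sequence between their annotated starts (GRCm38.p6, chr1:82586850-82586920, plus strand): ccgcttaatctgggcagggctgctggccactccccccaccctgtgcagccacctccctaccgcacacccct. Col6a2 and Col6a1, 85161 bases apart and in the same direction, were called together in 8 of 10 comparisons, among them all stage comparisons but P6w against E12.5, where only Col6a2 fell (-0.62). Col9a1 and Col19a1, tail to tail with 9205 bases between them, both fell in all 3 comparisons with E12.5 (E13.5, E16.5 and P6w). From E16.5 to P6w, where both had few counts, Col9a1 was called higher and Col19a1 lower. Col6a6 and Col6a5 were called in the same direction in 2 of 3 comparisons. At P6w against E12.5, Col6a6 was lower and Col6a5 higher. Col6a5 and Col6a4 also shared their direction in 2 of 3, and from E16.5 to P6w Col6a5 was lower and Col6a4 higher. Col3a1 and Col5a2, tail to tail at 24614 bases, both rose at E16.5, and from 24 h to 48 h in Con only Col5a2 fell by 2-fold.

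In windows from 250 bases before to 50 bases after annotated starts (RefSeq, GRCm38), searched on both strands, GGGCGG was present in 23 of 38 windows of 35 collagen genes (60.5%) and in 35.7% of all 32851 windows. CCAAT was in 34.2% against 37.4%, and TATAAA in 13.2% against 13.6%. None of these letters was in the interval between Col4a4 and Col4a3.

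Among the 90 collagen and collagen-related genes compared over the means of the 4 stages, Col8a2 (Pearson's r 0.996), Col25a1 (0.994) and Mmp8 (0.985) were most like Col1a1, and Col18a1 (0.999), Fmod (0.986) and Col26a1 (0.981) most like Col4a1. Over the 5 groups of the day series (79 genes), Dcn (0.999), P4hb (0.996) and P4ha1 (0.993) were most like Col1a1, and Ddr2 (1.00), Col4a4 (0.992) and Adamts3 (0.976) most like Col4a1. Over the 8 treatment groups (62 genes), Bgn (0.998), Col12a1 (0.995) and Ddr2 (0.994) were most like Col1a1, and Col4a2 (0.985), Loxl2 (0.967) and Lamc1 (0.954) most like Col4a1. These are descriptions over few group means from shared libraries.

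The 10x sample shows how the chains were spread over the cells at day 6. Of 15412 barcodes, 15315 passed the study's stated filters (at least 200 genes, at most 40% mitochondrial counts), with a median of 9281 UMIs, the molecules counted by their barcodes. Collagens took 24.55 of every 10000 UMIs, and 92.82% of cells had at least 1 collagen UMI. Col4a1 had 122667 UMIs (7.53 per 10000), Col4a2 75514 (4.64), Col18a1 56607 (3.48), Col1a2 33366 (2.05), Col3a1 27422 (1.68) and Col1a1 23244 (1.43). Col6a4 had 0 UMIs in 15315 cells, which allows a share of cells with a UMI of up to 0.0196%, at a floor of 3 counts. The study's methods describe the single-cell sequencing as run in triplicate, but the matrix holds no map from cells to replicates and is taken as 1 sample. With 1 sample there is no test between cells, and the 95% intervals given are exact and cover counting error only.

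The cells formed 12 clusters, made without the collagen genes. Collagen IV was concentrated in 2 clusters that matched the markers of extraembryonic endoderm. Cluster 10, with 269 cells and a median of 2382 UMIs, held Col4a1 at 69.7 per 10000 (67.9 to 71.5) and Col4a2 at 45.1, and cluster 7, with 1013 cells and a median of 21740 UMIs, held them at 36.4 and 19.8. Cluster 10 was led by Lama1, Tinagl1 and Gm15261. Cluster 7 was led by Srgn, Rbp4 and Pitx1, with Lama1, and Fst of the granulosa list, further down its leading genes. Lama1 is itself a basement membrane laminin and one of the markers behind the name. Under a stricter cell filter (at least 1000 genes, at most 10% mitochondrial counts) 1 cluster matched these markers, with 995 cells, Col4a1 at 37.1 and Col4a2 at 20.3, both the highest of any cluster. In the other clusters Col4a1 ran from 1.71 (cluster 3) to 7.94 (cluster 8). Col18a1 had its lowest level in cluster 7, at 0.665 per 10000, so the 2 basement membrane collagens were not concentrated in the same cells. Free RNA also gives UMIs. After each cell was thinned to 2000 UMIs, Col4a1 was found in 96.8% of cluster 7 and 98.8% of cluster 10, and in 19.0% of the neuron-like cluster 11, whose median depth was 9750 UMIs.

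Of the fibrillar chains, Col1a1, Col1a2, Col3a1, Col5a1 and Col5a2 were highest in cluster 4. So were Col6a1, Col6a2, Col6a3 and Col15a1 of the other classes. This cluster of 1487 cells (9.71% of all) was led by Actg2, Acta2, Myh11, Lum and Dcn, genes of smooth muscle and fibroblasts, and was left unnamed. It held 62.0% of the UMIs of Col1a1, 52.6% of Col3a1, 53.2% of Col1a2, 58.6% of Col6a1, 67.7% of Col6a2, 79.3% of Col15a1 and 80.9% of Col6a3. Per 10000 UMIs, Col1a1 was at 6.25, Col3a1 at 6.26, Col1a2 at 7.69 and Col6a1 at 1.80 there, against 0.155 for Col1a1 and 0.205 for Col3a1 in the epithelial-like cluster 6. At 2000 UMIs a cell, 60.3% of cluster 4 and 2.74% of cluster 6 had a Col1a1 UMI. Col18a1 (10.6), Col11a1 (1.42), Col12a1 (1.72) and Col2a1 (0.858) were highest in cluster 5, whose cells had a median of 2038 UMIs and 15.7% mitochondrial counts, so that these levels go with signs of low RNA quality. Under the stricter filter the highest cluster had Col18a1 at 5.50 and Col2a1 at 0.514. The fibrillar Col27a1 was highest in cluster 10 under the study's filters, at 2.92 per 10000 against 0.194 over all cells.

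**Figure D5:**
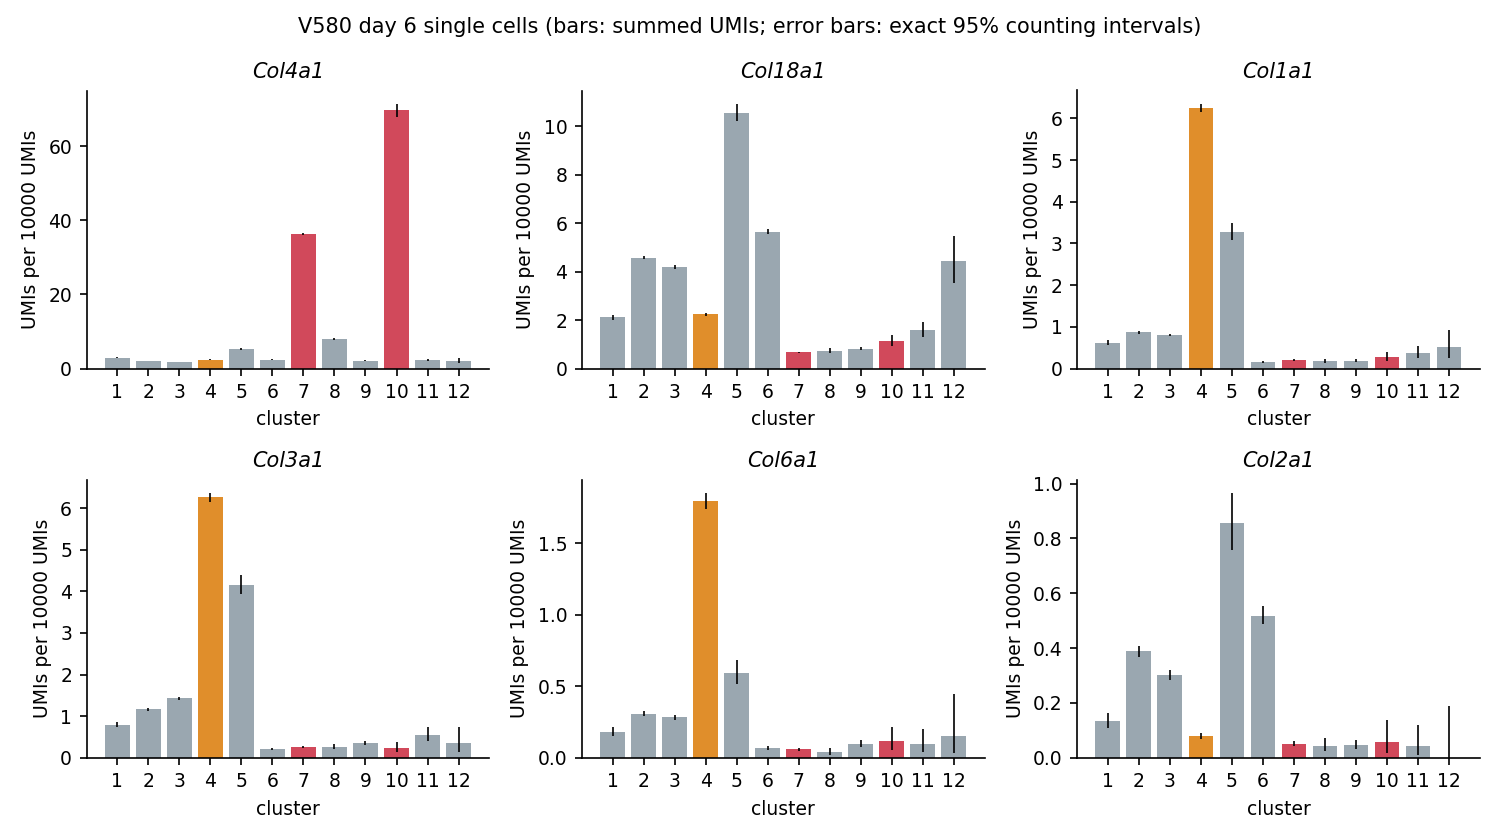
UMIs per 10000 of collagen chain genes in the 12 clusters of V580 day 6 cells (1 sample). Red bars are the extraembryonic endoderm-like clusters 7 and 10, orange is cluster 4 and grey the other clusters, and error bars are exact 95% Poisson intervals. Col4a1 is highest in cluster 10 (69.7), which has shallow cells (under a stricter cell filter the highest cluster has 37.1), and Col1a1 in cluster 4 (6.25).

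Partner chains were found more often in cells that held the other chain than in cells that did not. Among 11515 cells thinned to 2000 UMIs, Col1a2 was in 54.4% (52.2 to 56.6) of the cells with a Col1a1 UMI and in 15.9% of the others, and Col3a1 in 50.6% and 12.6%. Col4a2 was in 49.7% of the cells with Col4a1 and in 24.9% of the others, and Col6a2 in 21.8% of those with Col6a1 and 2.93% of the others. Col1a1 was in 13.1% of the cells with Col2a1 and in 17.7% of the others, and Col4a1 in 35.3% of those with Col1a1 and 40.3% of the others. The 3800 cells under 2000 UMIs were left out of these shares, and no doublets were removed, since the doublet caller marked 1 cell (0.00653%) and so did not work on these data.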

How the data were processed

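The authors deposited whole-number read counts per gene symbol for the stages (NEBNext poly(A) libraries, Hisat2 and featureCounts, mm10), FPKM values per symbol for the days and treatments (tool for this unit not given in the sources used here), and UMI counts of 1 10x sample (Cell Ranger, mm10). The submitters' processing notes also name Trim Galore, FastQC, SAMtools and RSEM. FPKM columns that write only the number of AM580 were read as AM580, since V580 has columns of its own. 11 columns of a further table were not used here, and its samples were not analysed here.

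Counts were filtered with filterByExpr, scaled by TMM, and fitted over 8 libraries in edgeR 4.0.16 (quasi-likelihood test, R 4.3.3), at a Benjamini-Hochberg adjusted p below 0.05. Levels per kb used GENCODE exon lengths. log2(FPKM+1) values were tested with limma 3.58.1 (trend) over 15 or 16 libraries, with 1 FPKM in at least 3 or 2 of them, and called at 2-fold as well, interactions without it. Cells were processed with scanpy 1.11.5 (2000 variable genes, 20 components, Leiden resolution 0.5), with collagens left out of the clustering. A cluster was named from at least 3 markers. On simulated data for P6w against E12.5, 100% of 200 genes changed 4-fold were recovered, over 15890 genes, with 9 false calls. The changed genes were drawn from well-counted ones, so this does not cover genes of few counts or smaller changes.

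Per-library values are given for the highest members and partner chains, and for the 4 largest rises and falls among called members, for related lists the 3 largest changes, and Col1a1 and Col4a1 served as references for likeness. Other members given with values, and Lama1, were chosen after the values were seen. The members and lists were chosen with earlier results of these data known. DESeq2 1.42.0 and other alternatives are given in the closing section. Replicate numbers did not pair libraries: 0 of 12 same-numbered pairs in the stages, 9 of 30 in the days and 14 of 56 in the treatments correlated above 0.1.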

Additional observations from a re-analysis of the deposited data

Results flagged for a closer look

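The V580 effect was taken as the V580 group against the Con group at the same time, with libraries unpaired. It differed between 48 h and 24 h by an interaction test (limma, adjusted p below 0.05) for 11 collagens, all of them in the same direction. The differences on the log2(FPKM+1) scale were 0.26 for Col18a1, 0.35 for Col4a5, 0.47 for Col5a2, 0.47 for Col5a1, 0.54 for Col6a2, 0.60 for Col8a1, 0.61 for Col4a1, 0.65 for Col1a1, 0.71 for Col4a2, 0.81 for Col13a1 and 0.91 for Col2a1. Col13a1 passed the filter on low values only through the V580_48h libraries, so it had to differ. Over all genes, 15.8% passed with a positive and 18.1% with a negative difference.

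The Vc effect at 48 h differed between cultures with and without AM580 for 4 collagens by the same kind of test, at -0.83 for Col2a1, -0.62 for Col4a2, -0.48 for Col4a1 and -0.35 for Col18a1, where 2.55% of all genes passed with a negative and 1.06% with a positive value. Groups of 2 or 3 libraries are too small for a search for single libraries that stand apart.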

How the results depend on the processing

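Over the settings that changed the method, 98 of 118 counts of called collagens stayed within 1.5 times the value given, and 1490 of 1560 calls of single genes kept their direction and their side of the threshold, while 56 lost the call and 6 changed direction. The changes of direction were Col5a1 (0.027), Col1a2 (0.23) and Col12a1 (0.23) at E13.5 with a length term, and Col15a1 with E13.5 in place of E12.5, at E16.5 (0.69, and 0.31 with a length term) and P6w (0.088). Each of these 2 settings gave no value for 6 calls whose genes then passed no filter. At E13.5 the count of 17 became 7 with a 2-fold threshold and 11 with the length term. Without a fold threshold the counts became 25, 24 and 25 for days 6, 8 and 10 set against E12.5_GC, and in the treatments 2 (Vc_24h), 6 (AM580_24h), 8 (V580_24h), 7 (Vc_48h), 8 (AM580_48h), 12 (V580_48h), 10 (V580_48h against AM580_48h) and 19 (Con_48h against Con_24h). On log2(FPKM+0.1) they were 2 for AM580_24h, 1 for V580_24h, 5 for AM580_48h, 3 for V580_48h and 17 for Con_48h against Con_24h. The fold threshold and the pseudocount set these by construction, and they are not read against the shares of all genes, which belong to the main rule. The single cells held 24.19 collagen UMIs per 10000 under a stricter filter (at least 1000 genes, at most 10% mitochondrial counts) and 24.74 without the 10% of cells with the highest doublet scores, a setting chosen, like the GC term and the E13.5 reference, after seeing the data. With 1 library left out, 918 of 994 single calls were kept and none changed direction. The count at E13.5 ran from 11 (without the second E13.5 library) to 15, and that of V580_48h from 0 to 1, with 0 without either V580_48h library, because Col13a1 then passed no filter. A replicate block changed 2 of 225 single calls. The counts with the block were 18 at E13.5, 30 at E16.5, 37 at P6w and 33 for P6w against E16.5, and the same as without it elsewhere. With 2 libraries a group in the stages and treatments, and no counts behind FPKM, small changes of low genes could not be told from noise.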
